A study of Homo sapiens with 18 samples.

Results

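The baseline of 2 repressive histone marks was described in sgControl cells, which carry a control guide and no knockout of a methyltransferase. They derive from U937, an established line of human acute myeloid leukaemia, and whether they are 1 clone or a pool is not stated. The members are 4 of the 18 samples of the series, namely 2 libraries of H3K9me3 and 2 of H3K27me3. Their broad domains, stretches of enriched windows joined into one region, numbered 26591 and 24829 for H3K9me3 and 10971 and 9855 for H3K27me3. The other samples are knockouts of SUV39H1 alone (SKO) or of SUV39H1 and SUV39H2 (DKO), SETDB1 libraries of wild-type (WT) cells and inputs. Separate cultures are not named for the replicates, so their spread may be technical. With 2 libraries on each side the smallest two-sided p of an exact test is 0.333, so no such test was used and differences are set beside the spread of replicates.

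H3K9me3 is the trimethylated form of lysine 9 of histone H3. It is set by enzymes such as SUV39H1, SUV39H2 and SETDB1, is bound by HP1 proteins, and marks constitutive heterochromatin, repeats and zinc finger gene clusters. H3K27me3 is set by Polycomb repressive complexes with EZH1 or EZH2 as the catalytic subunit, and is known for covering silent developmental genes. Both marks go with low transcription, and neither measures it. Domains come from bulk cells and separate immunoprecipitations, so an overlap does not show that both marks lie in the same cell or on the same copy of a chromosome.

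Promoters of 3 genes are shown because these genes are the clearest cases of each state with a promoter in the RefSeq table (GRCh38.p14): 250 bases before to 50 after the start, 5′ to 3′ on the gene's strand, with CG dinucleotides in capitals. CCDC150, on chromosome 2, lay wholly inside H3K9me3 and outside H3K27me3 in all 4 libraries, and its promoter at chr2:196639465-196639764 on the plus strand holds 32 CG dinucleotides. ZNF423, which encodes a zinc finger transcription factor, had the opposite state, with 26 in its promoter at chr16:49857870-49858169 on the minus strand. FGF14, which encodes an intracellular fibroblast growth factor homologue, was covered by both marks, with 11 at chr13:102402394-102402693 on the minus strand.
CCDC150: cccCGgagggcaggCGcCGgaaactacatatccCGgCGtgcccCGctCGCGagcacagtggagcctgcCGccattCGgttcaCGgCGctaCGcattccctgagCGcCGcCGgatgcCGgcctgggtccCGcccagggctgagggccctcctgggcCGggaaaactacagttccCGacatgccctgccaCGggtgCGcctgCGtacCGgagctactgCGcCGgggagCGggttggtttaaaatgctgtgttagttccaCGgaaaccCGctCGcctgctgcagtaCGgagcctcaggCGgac
ZNF423: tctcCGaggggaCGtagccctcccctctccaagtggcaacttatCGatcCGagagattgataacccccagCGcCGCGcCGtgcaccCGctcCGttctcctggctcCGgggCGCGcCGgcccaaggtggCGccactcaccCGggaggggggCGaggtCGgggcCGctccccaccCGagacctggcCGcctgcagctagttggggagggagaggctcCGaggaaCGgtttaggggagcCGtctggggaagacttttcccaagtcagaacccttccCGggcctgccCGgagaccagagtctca
FGF14: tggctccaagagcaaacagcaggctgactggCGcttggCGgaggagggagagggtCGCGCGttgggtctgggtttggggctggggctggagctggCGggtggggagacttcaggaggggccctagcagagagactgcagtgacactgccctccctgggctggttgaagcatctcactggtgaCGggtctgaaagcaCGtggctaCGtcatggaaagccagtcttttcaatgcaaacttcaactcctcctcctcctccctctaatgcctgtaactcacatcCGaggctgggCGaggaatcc

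Both marks covered about the same length, but H3K27me3 did so in far wider domains. H3K9me3 covered 1044 and 1013 Mb, which is 34.5 and 33.4% of the 3029 Mb considered, and H3K27me3 covered 1058 and 1062 Mb, 34.9 and 35.1%. The median domain was 22.4 and 24 kb wide for H3K9me3 and 34.4 and 40 kb for H3K27me3. Domains at least 60.8 kb wide made up 50% of the covered length in each H3K9me3 library, and the same measure was 269.6 and 293.6 kb for H3K27me3. The libraries of the marks did not overlap in either width. Domains of 500 kb or more held 4.25 and 4.01% of the H3K9me3 length and 30.4 and 33.0% of the H3K27me3 length. Depth differed alongside: reads inside domains came to 23.6 and 18.0 M (mega) for H3K9me3 and 50.3 and 48.5 M for H3K27me3. The part of depth in the widths was not tested.

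**Figure D1:**
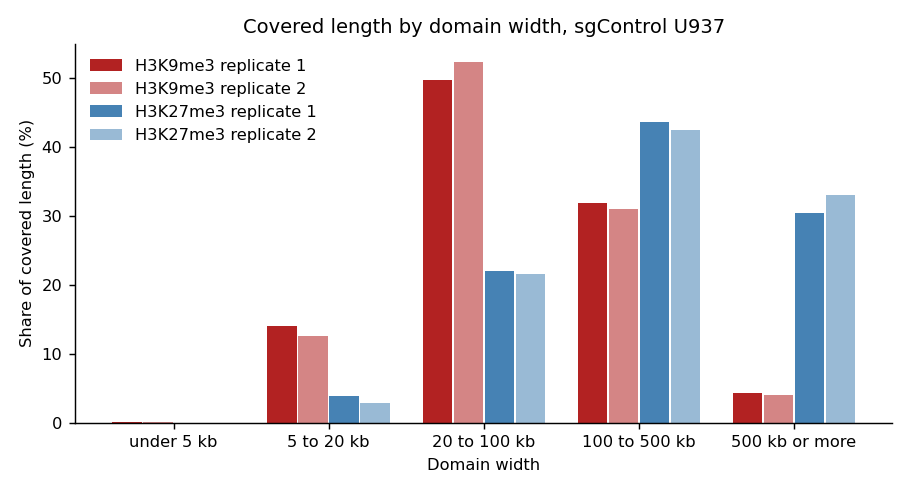
Share of the covered length (y axis, percent) held by domains of each width class (x axis), for each of the 4 libraries; full colour is replicate 1 and pale colour replicate 2. Domains of 20 to 100 kb held 49.8 and 52.3% of the H3K9me3 length, and domains of 100 kb or wider held most of the H3K27me3 length.

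Replicates of H3K27me3 matched more closely than those of H3K9me3. The Jaccard index, the shared length over the length in either, was 0.910 between the H3K27me3 libraries and 0.702 between the H3K9me3 libraries. Between the marks it was 0.393 to 0.402 over the 4 library pairs, below both. In 10 kb bins, with a mark present where domains filled at least 50% of the bin, 336 Mb carried H3K9me3 in 1 library only, against 88.3 Mb for H3K27me3.

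More of the genome carried both marks than either alone. Bins with both marks in every library summed to 516 Mb, or 17.0% of the genome. H3K9me3 alone held 350.7 Mb (11.6%) and H3K27me3 alone 344.9 Mb (11.4%). Neither mark was present over 1402 Mb (46.3%), a length that includes unassembled sequence, and 414.8 Mb were not classified because replicates differed. Of the length with H3K9me3 in both libraries, 58.2% also carried H3K27me3, and 50.2% of the H3K27me3 length also carried H3K9me3. The shared length of domains averaged 594 Mb over the 4 library pairs, 1.65 times the product of the covered shares. Taken within each chromosome, a comparison added after the data were seen, the ratio was 1.52. Both ratios count unassembled sequence in the length, which can hold no domain and so raises them. It could not be taken out here. For context, bins with both marks summed to 332.3 Mb in the SKO libraries and 421.3 Mb in the DKO libraries, where H3K27me3 alone held 695.7 and 573.4 Mb.

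Chromosomes differed widely in both marks. H3K9me3 covered 66.3% of chromosome 8, 55.4% of chromosome 13 and 55.1% of chromosome 18, but 0.57% of chromosome 22, 8.66% of chromosome 17 and 9.97% of X, as means of the replicates. H3K27me3 ranged from 12.2% of chromosome 22 to 56.3% of chromosome 18. On chromosome 8, 40.2% of bins carried both marks and 2.81% H3K27me3 alone, while on chromosome 11, 7.24% carried both and 24.1% H3K27me3 alone. Over the 23 chromosomes, which share libraries, the covered shares of the marks had Spearman's rho 0.728 and Pearson's r 0.712. These shares are of whole chromosome lengths, unassembled sequence included. Read density inside domains of at least 10 kb also moved together between the marks (rho 0.643, r 0.539). The lists hold no input count, so differences in DNA copy number between chromosomes cannot be removed, and their part was not tested.

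**Figure D2:**
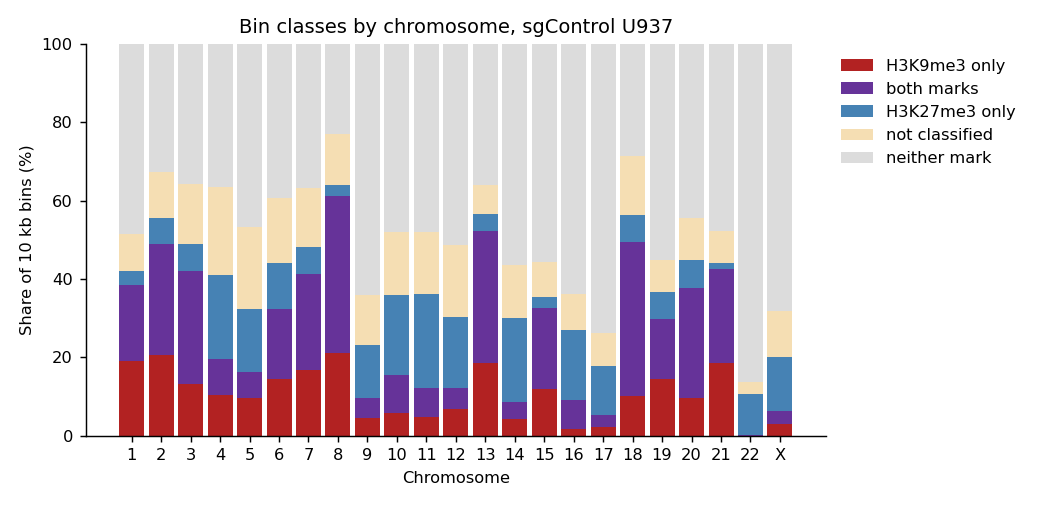
Share of 10 kb bins (y axis, percent) in each class on each chromosome (x axis), from the 2 libraries of each mark. Bins with both marks reach 40.2% on chromosome 8 and 39.1% on chromosome 18, and chromosome 22 has almost no H3K9me3.

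The longest stretches with 1 or both marks held few genes. The longest run with H3K9me3 alone was chr13:87130001-90660000, 3530 kb with SLITRK5, which encodes a neuronal transmembrane protein. The next was chr18:55420001-56600000 at TCF4, a basic helix-loop-helix factor gene, and TXNL1. H3K27me3 alone ran over chr16:5380001-7320000 and chr16:7330001-8380000, both at RBFOX1, a neuronal splicing factor gene, and over chr14:32860001-33730000 at NPAS3, a neuronal transcription factor gene. RBFOX1 was covered over 99.4% of its body by H3K27me3 in both libraries, and over 1.78 and 0% by H3K9me3. Both marks ran over chr13:73650001-75280000 at KLF12, over chr13:53620001-55180000, and over chr2:191770001-193080000 at CAVIN2 and TMEFF2.

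The widest H3K9me3 domains lay on chromosome 13, either wholly outside H3K27me3 or mostly inside it. In replicate 1 the widest, chr13:87823201-90666400, held no protein-coding gene and had 0% of its length in H3K27me3 in both libraries. In replicate 2 the widest was chr13:102881601-104740800, at the bile acid transporter gene SLC10A2, with 92.9 and 93.8% in H3K27me3. The second widest of each replicate overlapped the widest of the other. The widest H3K27me3 domains were chr2:139538401-142428800 in replicate 1, at the lipoprotein receptor gene LRP1B, and chr13:67685601-70860000 in replicate 2, at KLHL1. H3K9me3 covered 79.99 and 82.9% of the first and 95.6 and 94.5% of the second.

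Wide domains had a larger share of their length in the other mark than narrow ones. The H3K9me3 length inside H3K27me3 went across width classes from 41.4% for domains of 5 to 20 kb to 71.5 and 67.5% for those of 500 kb or more in replicates 1 and 2. For H3K27me3 the share in H3K9me3 went from 30.4 and 32.9% to 74.7 and 73.5%. H3K9me3 domains with at least 90% of their length in H3K27me3 had a lower read density than those with under 10%. Density is reads per kb per M reads in the library's domains, taken over domains of at least 10 kb. Medians were 0.820 against 0.864 in replicate 1 and 0.858 against 0.896 in replicate 2. Within chromosomes the ratio was above 1 on 1 of 23 chromosomes in each library. For H3K27me3 domains the direction was the other way, with 0.731 against 0.634 and 0.739 against 0.634, and a ratio above 1 on 18 of 22 and 20 of 22 chromosomes. Density also differed by width. Median H3K27me3 density was 0.653 and 0.646 for domains of 20 to 100 kb and 1.06 and 1.05 for those of 500 kb or more. Overlap and width are not separated in these densities.

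Edges of domains were sites where the other mark dipped. At 3 kb outside an H3K27me3 edge, 19.2% of positions lay in H3K9me3 (19.1 to 19.3 over the 4 library pairs). The share was 31.5% at 49 kb outside, 30.0% at 1 kb inside and 56.7% at 49 kb inside. Around H3K9me3 edges the dip of H3K27me3 was shallow, with 49.4% at 49 kb outside, 47.1% at 3 kb outside, 52.3% at 1 kb inside and 67.6% at 49 kb inside. Domains of at least 20 kb were used, and only wider ones can hold a position 49 kb inside. Wide domains had more of the other mark, so distance and domain width are not separated in the inward rise. Bins that were not classified bordered 53.7% of the ends of runs with H3K9me3 alone and 65.7% of those with H3K27me3 alone, so what the marks border was not resolved for most runs. Domains in a list are at least 4000 bp apart and lie on an 800 bp grid, which limits what is seen close to an edge.

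**Figure D3:**
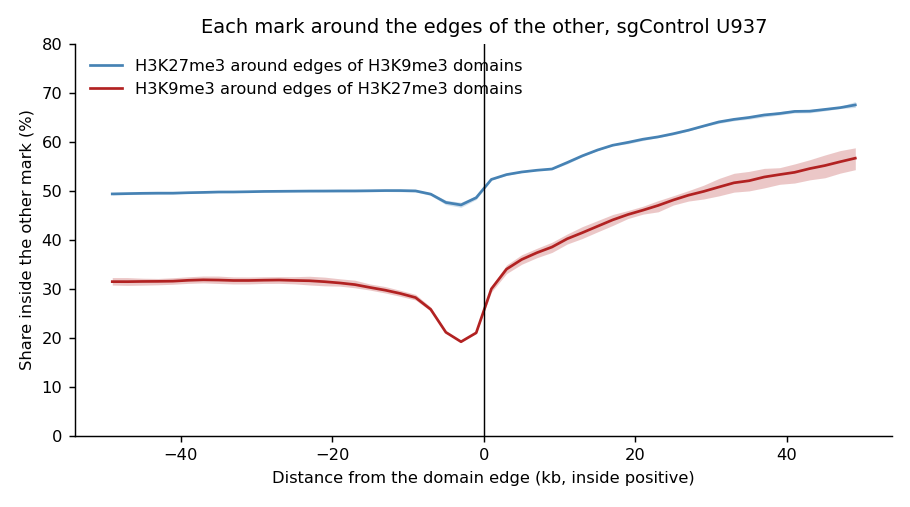
Share of positions inside the other mark (y axis, percent) against distance from the edge of domains of at least 20 kb (x axis, kb, inside positive). Lines are means over 4 library pairs and bands their range; H3K9me3 falls to 19.2% at 3 kb outside H3K27me3 edges.

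SETDB1 peaks of wild-type cells were densest where H3K9me3 was found alone. SETDB1 is the H3K9 methyltransferase recruited by KRAB zinc finger proteins through TRIM28, and its libraries come from cells without the control guide. The 2 libraries gave 27.3 and 28.0 peaks per Mb in bins with H3K9me3 alone, 6.49 and 6.94 with both marks, 5.24 and 5.44 with neither and 1.25 and 1.46 with H3K27me3 alone. Bins with H3K9me3 alone held 40.9 and 40.3% of all peaks on 11.6% of the genome. Among peaks with a deposited fold of at least 10, they held 435 of 725 (60%) and 456 of 793 (57.5%).

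**Figure D4:**
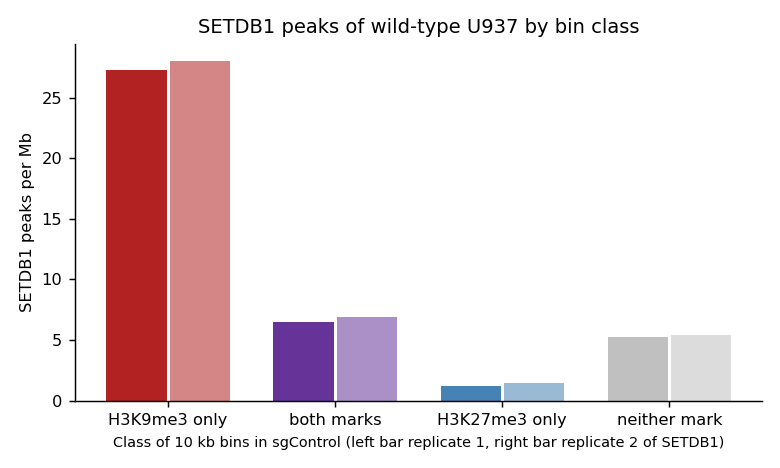
SETDB1 peaks per Mb (y axis) in 4 classes of 10 kb bins (x axis), with 1 bar for each of the 2 wild-type SETDB1 libraries. Bins with H3K9me3 alone have 27.3 and 28.0 peaks per Mb and bins with H3K27me3 alone 1.25 and 1.46.

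Genes were densest outside both marks. Unmarked bins held 10.5 genes per Mb, against 3.81 with H3K9me3 alone, 2.83 with H3K27me3 alone and 2.85 with both. A gene body was called marked where at least 50% of it lay in domains of both libraries. Neither mark, or unmarked, means under 50% of the body in every library, and so not always 0%. Of 19970 protein-coding genes, 1219 (6.1%) had H3K9me3 alone, 1049 (5.25%) H3K27me3 alone, 1444 (7.23%) both, 15119 (75.7%) neither, and 1139 were not classified. A gene was called higher in a mark where its libraries did not overlap those of the other mark and the closest libraries of the 2 marks were 25 or more percentage points apart. This gave 1820 genes higher in H3K9me3 (9.11%) and 1371 higher in H3K27me3 (6.87%). The order was the opposite in promoter windows, with 696 and 753, over fewer genes and without chromosome 8. In all 4 libraries, 12735 genes lay at 0% and 605 at 100%. H3K9me3 covered 340 genes fully and H3K27me3 none of them in all 4 libraries, and the reverse held for 371.

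Among the 8 largest excesses of H3K9me3, ties going to the longest gene, were CCDC150, EDNRB, ZNF44, DZIP1, ZNF567, ZNF569 and CHFR, each at 100% in both H3K9me3 libraries and 0% in both H3K27me3 libraries. EDNRB encodes an endothelin receptor, CHFR a mitotic checkpoint ubiquitin ligase and DZIP1 a protein of the cilium base. Among the 8 largest excesses of H3K27me3 were ZNF423, CDH11, MPDZ, TOX3, SH3BP4, SLC13A1 and SARDH, each at 0% in both H3K9me3 libraries and 100% in both H3K27me3 libraries. CDH11 encodes a mesenchymal cadherin. The longest genes at 100% in every library were FGF14, the sodium leak channel gene NALCN, EBF2, MAPK4, LMX1A, VWC2, SRD5A2 and NCKAP1. EBF2 and LMX1A encode developmental transcription factors.

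Of the 34 gene lists, zinc finger genes of chromosome 19 were the most covered by H3K9me3. On chromosome 19, 162 of 258 were higher in H3K9me3 (62.8%) and 0 in H3K27me3, with 144 carrying H3K9me3 alone, 61 both and 28 neither. H3K9me3 covered 85.9 ± 0.698% of their bodies and H3K27me3 27.1 ± 0.210% (SD, n = 2), against 22.2 and 16.2% over all genes of that chromosome. ZNF44, ZNF567 and ZNF569 were wholly in H3K9me3 alone, ZNF599, ZNF112 and ZNF667 in both, and ZNF541 and ZNF507 in neither. On other chromosomes 120 of 299 were higher in H3K9me3 (40.1%) and 6 in H3K27me3 (2.01%), with means of 48.4 and 16.3% in that order. Means over genes of the same chromosomes were 16.8 and 14.6%. Over all genes 9.11% were higher in H3K9me3 and 6.87% in H3K27me3. The retroviral envelope genes ERV3-1 and ERVMER34-1 also lay at 100% in H3K9me3 and 0% in H3K27me3, the second without a call when low-scoring domains were left out. The 26 domesticated retroviral genes had means of 22.5% in H3K9me3 and 23.2% in H3K27me3. Single members of families with near-identical copies, and counts over their clusters, are uncertain here and below. No source used here says how reads with several matches were handled.

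Clusters of sensory and skin protein genes differed from each other and between chromosomes. Olfactory receptors, the odour sensors, averaged 56.3 ± 1.77% in H3K9me3 and 65.9 ± 0.104% in H3K27me3 (SD, n = 2), with 144 of 392 carrying both, 39 H3K9me3 alone, 47 H3K27me3 alone and 77 neither. The state of the receptors differed between chromosomes: 9 of 10 on chromosome 3 had H3K9me3 alone, and 14 of 17 on chromosome 6 had both. Of all 10 kb bins, 13.3% on chromosome 3 had H3K9me3 alone and 18.0% on chromosome 6 both marks. On chromosome 14, 7 of 24 receptors had H3K27me3 alone and 14 were unmarked, beside 21.6 and 56.5% of its bins. Keratin associated proteins, which form the hair matrix, averaged 52.2% in H3K9me3 and 65.9% in H3K27me3. On chromosome 21, 39 of 49 carried both, and on chromosome 17, 22 of 34 carried neither. Of all bins, 23.8% on chromosome 21 had both marks and 73.8% on chromosome 17 neither. Beta-defensins averaged 47.0% in H3K9me3 and 51.8% in H3K27me3, with 15 of 39 in both marks and 17 in neither. On chromosome 20, 10 of 13 carried both, and on chromosome 8, 15 of 19 carried neither. Keratins averaged 8.65% in H3K9me3 and 34.4% in H3K27me3. Of 55 keratins 15 were higher in H3K27me3 (27.3%) and 0 in H3K9me3, against 6.87 and 9.11% of all genes. Of the same genes 33 were unmarked (60%). Those in H3K27me3 alone were 13, such as KRT82, KRT75 and KRT71. Of 25 bitter taste receptors 16 were unmarked (64%), against 75.7% of all genes.

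Clustered protocadherins, neuronal cell identity proteins encoded in 1 stretch of chromosome 5, averaged 74.6 ± 5.64% in H3K9me3 and 49.0 ± 1.69% in H3K27me3 (SD, n = 2). Of 53, 20 carried both (37.7%, against 7.23% of all genes), 11 H3K9me3 alone (20.8%, against 6.1%) and 18 could not be classified. Their annotated bodies overlap, so the members share bases. PCDHAC2 lay at 100% in all 4 libraries, PCDHB9 at 100% in H3K9me3 and 0% in H3K27me3, and PCDHGC4 and PCDHGC5 at 0% in all.

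Neuronal genes were measured in 3 lists. Adhesion, guidance and synapse genes averaged 70.1 ± 0.130% in H3K27me3 and 37.6 ± 0.594% in H3K9me3 (SD, n = 2), against 16.6 and 18.7% over genes of the same chromosomes. Of 65, 29 were higher in H3K27me3 and 2 in H3K9me3, 25 carried H3K27me3 alone, 24 both and 13 neither. LRRTM1, a synaptic adhesion gene, lay at 100% in H3K27me3 and 0% in H3K9me3, while CNTN4 was in both and NEGR1 in H3K9me3 alone. GABA and glutamate receptors averaged 51.7% in H3K27me3 and 24.2% in H3K9me3, with 24 of 49 higher in H3K27me3 and 4 in H3K9me3, 17 in H3K27me3 alone and 18 unmarked. GRM8 was classed with H3K9me3 alone although H3K27me3 covered 46.1 and 49.4% of it. Potassium channels averaged 38.7% in H3K27me3 and 25.1% in H3K9me3. Of 95, 18 were higher in H3K27me3 (18.9%) and 5 in H3K9me3 (5.26%), 17 had H3K27me3 alone and 53 were unmarked (55.8%). Over all genes 6.87% were higher in H3K27me3, 9.11% in H3K9me3, and 75.7% were unmarked.

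**Figure D5:**
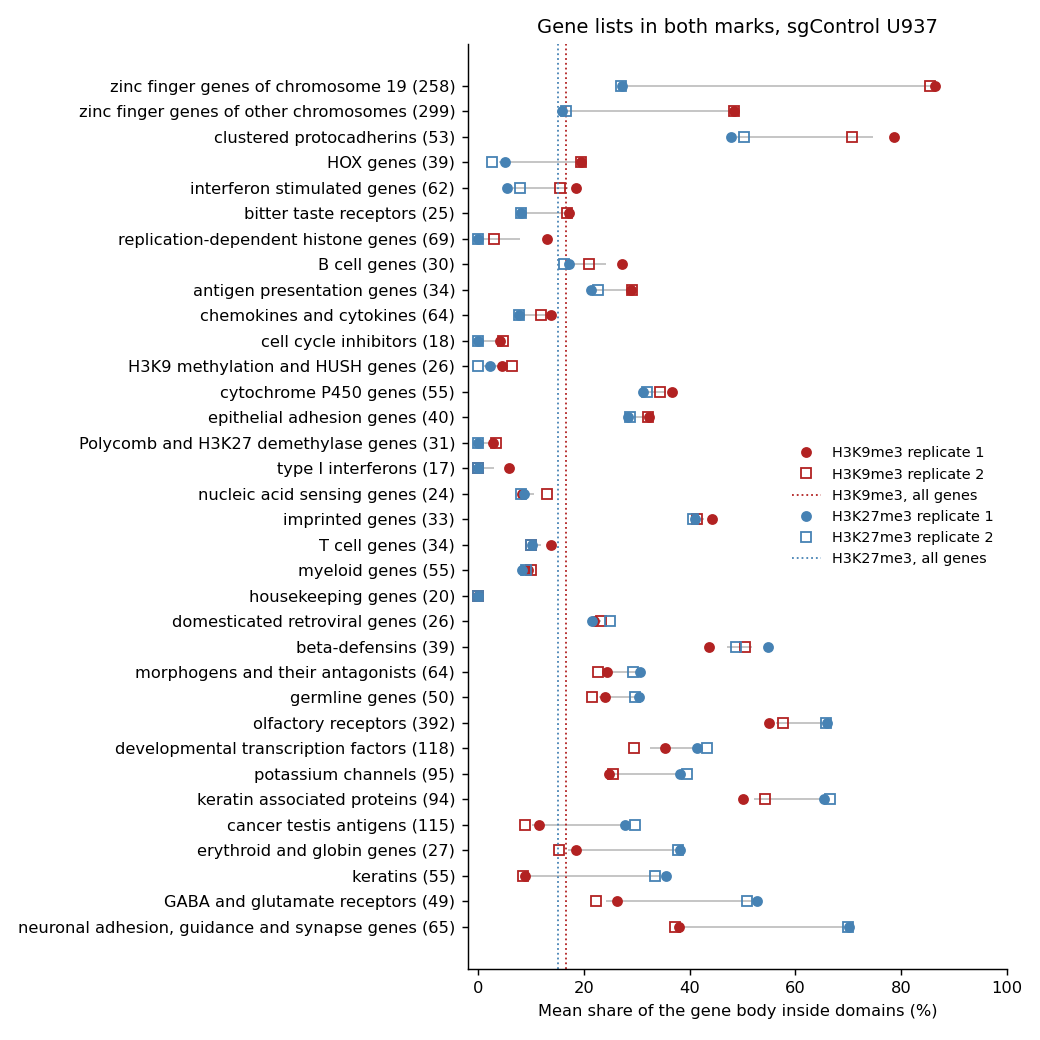
Mean share of the gene body inside domains (x axis, percent) for each of 34 gene lists (y axis, number of genes in brackets); red is H3K9me3, blue H3K27me3, filled circles replicate 1 and open squares replicate 2, and dotted lines are means over all genes. Zinc finger genes of chromosome 19 have the largest excess of H3K9me3 (85.9 against 27.1%) and neuronal adhesion genes the largest excess of H3K27me3 (70.1 against 37.6%).

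Developmental regulators were divided between the marks. Of 118 developmental transcription factors, 30 were higher in H3K27me3 (25.4%) and 16 in H3K9me3 (13.6%), with 14 in both and 45 unmarked. Over all genes 6.87% were higher in H3K27me3 and 9.11% in H3K9me3. Means of the factors were 42.3% in H3K27me3 and 32.4% in H3K9me3. TBX5, a heart and limb factor, ALX1 and CRX lay at 100% in H3K27me3 and 0% in H3K9me3. ZIC5, NKX6-1 and EOMES lay at 100% in H3K9me3 and 0% in H3K27me3 (NKX6-1 without a call when low-scoring domains were left out), and NEUROD1 and TBXT at 100% in all 4 libraries. Chromosomes differed, since 5 of 7 of these genes on chromosome 12 had H3K27me3 alone and 4 of 7 on chromosome 13 H3K9me3 alone. All 10 kb bins of these chromosomes differed in the same direction. H3K27me3 alone and H3K9me3 alone held 18.0 and 6.80% of bins on chromosome 12, and 4.52 and 18.5% on chromosome 13. Of 64 morphogens and antagonists 8 were higher in H3K27me3 (12.5%) and 5 in H3K9me3 (7.81%, below the 9.11% over all genes). Their means were 30.0 and 23.4% in that order. RSPO1 and FGF3 were in H3K27me3 alone and WNT5A in both.

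The HOX clusters, which set position along the body axis, were split by locus. HOXD13, HOXD12, HOXD11, HOXD10, HOXD4, HOXD3 and HOXD1 on chromosome 2 lay at 100% in H3K9me3 and 0% in H3K27me3. HOXD9 had 57.8% in both H3K9me3 libraries, and HOXD8 had neither mark. HOXC13 was the gene with H3K27me3 alone. Of 39 HOX genes 29 were unmarked (74.4%, against 75.7% of all genes), all 11 on chromosome 7 among them.

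Neither mark was found on 46 of 55 myeloid genes (83.6%), 27 of 34 T cell genes (79.4%), 20 of 30 B cell genes (66.7%) and 16 of 27 erythroid and globin genes (59.3%), against 75.7% of all genes. The myeloid genes had means of 9.62% in H3K9me3 and 8.57% in H3K27me3. Among monocyte and granulocyte markers 11 of 12 lay at 0% in all 4 libraries. The exception was ITGAM, the CD11b integrin gene, with 61.5 and 53.9% of its body in H3K9me3 and neither mark in its promoter window. Defining markers of other lineages were often at 0% as well, with 6 of 7 T cell, 4 of 6 B cell, 4 of 6 erythroid and 4 of 5 epithelial markers, so an unmarked gene does not identify the cell type. The broader lists gave H3K9me3 and H3K27me3 means of 11.8 and 10.0% for 34 T cell genes and 24.1 and 16.7% for 30 B cell genes, such as CR2 at 100% in H3K9me3. Erythroid and globin genes averaged 37.9% in H3K27me3 and 16.9% in H3K9me3. HBB, HBD and HBE1, beta-like globin genes, lay at 100% in H3K27me3 and 0% in H3K9me3. The 40 epithelial adhesion genes averaged 32.2% in H3K9me3 and 28.5% in H3K27me3, with 23 unmarked (57.5%) and 9 in both marks. Of those 9 genes 7 lay on chromosome 18, where 39.1% of bins carried both marks. DSC2 and DSG3, of the same chromosome, were wholly in both.

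The share of unmarked immune genes lay on either side of the 75.7% over all genes. Of 62 interferon stimulated genes 48 were unmarked (77.4%). Of the same genes 9 were higher in H3K9me3 (14.5%) and 2 in H3K27me3 (3.23%), against 9.11 and 6.87% of all genes. IFI44L lay at 100 and 86.2% in H3K9me3 and 0% in H3K27me3, and SAMD9 at 100 and 89.3%; in promoter windows neither gene was called. CD1C and CD1E, lipid antigen presentation genes, lay at 100% in H3K9me3 and 0% in H3K27me3, while HLA-DRA and HLA-DQB2 lay in both. The 34 antigen presentation genes averaged 29.0% in H3K9me3 and 21.99% in H3K27me3, with 20 unmarked (58.8%). Of 64 chemokine and cytokine genes 54 were unmarked (84.4%), as were 19 of 24 nucleic acid sensing genes (79.2%) and 16 of 17 type I interferons (94.1%).

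Housekeeping genes were free of both marks, and genes of the machinery were mostly unmarked, which 75.7% of all genes were too. All 20 housekeeping genes were at 0% in all 4 libraries. Of 26 genes of H3K9 methylation and the HUSH complex 24 were unmarked (92.3%), and 19 lay at 0% in all 4 libraries. ATF7IP, a SETDB1 partner, had 57.7 and 53.6% of its body in H3K9me3 and neither mark in its promoter window. Of 31 Polycomb and H3K27 demethylase genes 30 were unmarked (96.8%), and 27 lay at 0% in all 4 libraries. In this list 1 gene was called higher in H3K9me3, and the largest share of a body in any library was 62.1%. Of 18 cell cycle inhibitors 17 were unmarked (94.4%), and RB1 had 72.5 and 82.3% in H3K9me3. Of 69 replication-dependent histone genes 60 carried neither (87.0%). Imprinted genes averaged 42.8% in H3K9me3 and 40.8% in H3K27me3, with PEG3 and ZIM2 wholly in both marks. Of 50 germline genes 30 were unmarked (60%), with MAEL and DPPA4 wholly in both. Cytochrome P450 genes averaged 35.6% in H3K9me3 and 31.5% in H3K27me3. Of 115 cancer testis antigens 21 were higher in H3K27me3 (18.3%) and 1 in H3K9me3 (0.870%), against 6.87 and 9.11% of all genes.

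Promoters of marked genes held fewer CG dinucleotides than unmarked ones. The median over 15811 promoters of 300 bases was 15.5 with H3K9me3 alone, 10 with H3K27me3 alone, 7 with both and 24 with neither, with each promoter classed by the marks over its own window. Of the promoters with H3K9me3 alone, 150 belonged to zinc finger genes, with a median of 19. The other 538 had a median of 12, against 10 for 742 promoters of other genes with H3K27me3 alone. Of 12 chromosomes with at least 10 promoters of each single mark, the median was higher with H3K9me3 alone on 6 and higher with H3K27me3 alone on 6. TATAAA, searched on both strands, was in 22.3% of promoters with both marks, 14.4% with H3K27me3 alone, 11.3% with H3K9me3 alone, 7.73% with neither and 9.75% of all. A match is a string of letters, not a bound site. Of 962 genes with H3K9me3 alone over the body and a promoter in the table, 281 (29.2%) had an unmarked promoter, against 79 of 809 (9.77%) for H3K27me3 alone and 34 of 1116 (3.05%) for both.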

How the data were processed

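Chromatin of 4 sgControl U937 samples was immunoprecipitated for H3K9me3 or H3K27me3 with Drosophila spike-in chromatin, per the labels' protocols. The deposited lists give domains per library from epic2, with a read count per domain, not scaled for depth or spike-in, and a score, the authors' own value, used only to rank domains. The deposited SETDB1 peak lists give a fold enrichment and a −log10 p-value per peak. Per the submitters' processing notes, the builds were hg38 and dm6, and the tools included deepTools 3.5.6, Trim Galore 0.6.10 and SICER. Aligner and read filters were not given in the sources used here. The 4 inputs were not analysed here.

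Chromosomes 1 to 22 and X were used. Genes and promoters came from RefSeq tables of GRCh38.p14; 15811 of 19970 genes had a promoter, and those of chromosome 8 are not used here. Bins of 10 kb and gene bodies were classed as described, with 50% and 25 percentage point thresholds. Named genes were the 8 most extreme of each kind, up to 3 per state in each of 34 lists, and genes of the longest runs and domains. Some items that the rule names are not reported here. Members, lists and rules were chosen with earlier results of these data known. HOXD and ITGAM values were given as the point of a sentence. Alternatives covered bin size and thresholds, domain score, equal covered length, autosomes, promoter windows, limma 3.58.1 in R 4.3.3 with and without a replicate block, and leaving out each library. Scripts ran in Python 3.11.15 with numpy 2.4.6 and pandas 2.3.3 and were tested on simulated data.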

Additional observations from a re-analysis of the deposited data

How the results depend on the processing

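Lengths of the 4 bin classes stayed within 1.5 times of the reported values under every alternative run. With the upper 50% of domains by score, the overlap ratio was 1.82 and the widths holding 50% of the length 85.6 kb for H3K9me3 and 332 kb for H3K27me3. With equal covered length they were 1.69, 62.4 and 302.4 kb, and on autosomes alone the ratio was 1.62 and the H3K9me3 width 62 kb. The ratio within chromosomes, added after the data were seen, was 1.52. None of these ratios leaves out unassembled sequence. A difference of 50 points left 1130 genes higher in H3K9me3, 90% of the body left 843 genes in both marks, and promoter windows, held for 15811 genes, gave 696 genes higher in H3K9me3 and 753 in H3K27me3. That order of the counts is the opposite of the 1820 and 1371 over gene bodies. Leaving out each library in turn gave 1866 to 2200 genes higher in H3K9me3 and 1475 to 1628 in H3K27me3. The rule compares the closest libraries, so leaving 1 out can only keep or add calls, and these counts are no check of stability.

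Replicate numbers are shared by the marks, and no label says that they mark a shared culture. Replicate differences of the marks were uncorrelated over genes (r = -0.00109, n = 19970). limma called 1672 and 1119 genes at an adjusted p under 0.05, and with the replicate block 747 and 620. Both counts are unreliable: 14298 of 19970 genes had no spread between replicates in either mark, limma warned of it, and the block leaves 1 residual degree of freedom. They are not read as a test of the calls. Of 45 genes named in the text with a call, none changed direction with low-scoring domains left out or with equal covered length. The same held in promoter windows for the 38 genes with a promoter. Leaving out a library, autosomes alone and other point thresholds could not reverse a call under the rule, so they are no check of direction. Single genes were not compared in limma. The call was lost for 4 of 38 in promoter windows (ATF7IP, IFI44L, ITGAM, SAMD9) and for 2 when low-scoring domains were left out (ERVMER34-1, NKX6-1).

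Depth of the libraries differs between marks, no input count or spike-in factor is in the lists, and 2 libraries per mark limit the precision.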
